A study of Rattus norvegicus with 4 samples.

Results

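The 9 genes described here belong to the NRF2-KEAP1 axis and to the supply of NADPH: Nfe2l2, Keap1, Mafg, Maff, Nqo1, Osgin1, Pgd, Taldo1 and Me1. They were taken as the non-control probes whose RefSeq accession names one of these genes, which gave 9 probes of the 45598 on the array, 1 for each gene, among 16581 named genes. They were measured in NR8383, a macrophage cell line derived from normal rat by lung lavage, in cultures that had received the iron oxide Fe2O3, particle NRCWE018, at 2 µg/mL 4 h earlier. The study set exposed cultures against unexposed ones, with 4 biological replicates each. The cells had undergone 20 passages. The values below are from the 4 exposed cultures, hybridised to 1 single-colour array apiece; the unexposed cultures were not analysed here, so nothing below measures a response to the particles. The data show which genes gave a signal in exposed cells and how far the exposed cultures differed from each other.

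NRF2, the product of Nfe2l2, is a transcription factor that switches on genes of antioxidant defence. In unstressed cells KEAP1 binds NRF2 and hands it to a CUL3 ubiquitin ligase for degradation. Oxidants and electrophiles modify KEAP1, NRF2 accumulates and, paired with a small MAF protein, binds antioxidant response elements near its targets. Much of this control acts on the NRF2 protein, which an mRNA array does not measure. NADPH is the reductant that glutathione and thioredoxin systems draw on, and several enzymes that supply it are NRF2 targets. In alveolar macrophages, which take up inhaled particles, the axis is known as a defence against oxidants made during phagocytosis.

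The antioxidant response element offers a way to look at the members beyond their signal, so the promoters from RefSeq (GRCr8), 250 bases before to 50 after the annotated start, were searched on both strands. All 9 members had an entry. The core letters TGACNNNGC were found in 2 of the 9 windows, those of Me1 and Nfe2l2, against 12.1% of the 33469 promoters. Positions are counted from the annotated start, with the base before it as -1. In Me1 the match lay at -167 to -159, and its first 7 letters are also an AP-1 site, TGACTCA, which 4.63% of promoters hold. In Nfe2l2 the match lay past the start, at 39 to 47. The first sequence below is the Me1 stretch before its start (chr8:96540245-96540494, minus strand) and the second the last 30 bases of the Nfe2l2 window (chr3:81028950-81028979, minus strand), with the core in capitals.
Me1: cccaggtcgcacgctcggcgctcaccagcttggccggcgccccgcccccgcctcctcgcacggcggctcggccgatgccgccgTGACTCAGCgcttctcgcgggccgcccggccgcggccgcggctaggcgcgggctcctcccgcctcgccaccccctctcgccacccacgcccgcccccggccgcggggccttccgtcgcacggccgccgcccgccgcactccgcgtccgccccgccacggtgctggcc
Nfe2l2: actgctccgactagccatTGACGCCGCctc

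The other members differed in what their windows held. Nqo1 was the 1 member with a TATA box (TATAAA, at -59 to -54, in 14.2% of promoters), and it also held the letters CCAAT at -159 to -155 and at 45 to 49. Its stretch before the start (chr19:52220268-52220517, minus strand) is shown with the TATA and first CCAAT letters in capitals, because Nqo1 is a widely used NRF2 target and its window held no antioxidant response core. Maff was the 1 member with a cAMP response element (TGACGTCA, at -51 to -44, in 1.83% of promoters), shown in capitals in its stretch before the start (chr7:112792537-112792786, plus strand).
Nqo1: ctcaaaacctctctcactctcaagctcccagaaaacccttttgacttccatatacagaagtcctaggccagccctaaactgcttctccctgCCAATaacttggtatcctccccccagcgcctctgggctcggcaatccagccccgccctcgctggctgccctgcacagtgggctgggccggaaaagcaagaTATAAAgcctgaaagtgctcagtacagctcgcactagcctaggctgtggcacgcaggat
Maff: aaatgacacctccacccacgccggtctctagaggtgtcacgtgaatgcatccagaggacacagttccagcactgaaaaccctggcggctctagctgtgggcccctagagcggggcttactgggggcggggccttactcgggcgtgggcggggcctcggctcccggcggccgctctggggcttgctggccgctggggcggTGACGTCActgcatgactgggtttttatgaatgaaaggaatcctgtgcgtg

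Both pentose phosphate pathway members, Pgd and Taldo1, held CCAAT on the opposite strand, close before the start, at -31 to -27 in Pgd and at -57 to -53 in Taldo1. CCAAT was in 3 of the 9 members' windows, with Nqo1, against 37.5% of promoters, so it is not read as a trait of the members. The 41 bases around each match are shown with the match in capitals, for Pgd from chr5:164882038-164882078 on the minus strand and for Taldo1 from chr1:205923121-205923161 on the plus strand.
Pgd: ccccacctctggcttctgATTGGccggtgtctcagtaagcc
Taldo1: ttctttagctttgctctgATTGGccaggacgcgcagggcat
The E-box CACGTG was in the windows of Mafg and Maff, against 6.42% of promoters, and the GC box GGGCGG in 7 of the 9, against 33.1%. The share of G and C was above the median of all promoters, 51.7%, in each of the 9 windows: it was 81.7% in Me1, 68% in Nfe2l2, 67% in Mafg, 63.3% in Maff and 60% in Pgd, and between 52.7% and 57.3% in the other 4. A match of letters describes the sequence and does not show that a factor binds there, and a window without one says nothing of sites outside it.

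All 9 members were well above background on all 4 arrays, against 50.5% of named genes, each gene by its best probe, and 36.5% of all probes. A probe is called so by the scanner software's mark. Levels are given as log2 of the processed signal minus the array's 75th percentile, so that 0 is the level of the 75th percentile. They are not compared between genes, because probes differ in how brightly they bind. Replicate 4 differed most from the other arrays in these measures. Its 75th percentile was 756.5, against 984.3 to 1082 on the others. Of its probes 37.8% were well above background, against 40.2% to 41.2%. Spots marked as outliers were 1.62% on replicate 4 and 1.13% to 1.21% on the others. No spot was saturated and no pair of arrays held identical values. Pearson's r across the probes above background, which are not independent, lay between 0.990 and 0.993 for the 6 pairs of arrays. The macrophage label fitted the markers, with 8 of 9 measured macrophage genes above background on all arrays (Marco was on none), against 0 of 5 lung epithelium markers, 0 of 4 T and B cell markers, 0 of 1 granulocyte marker and 1 of 5 of fibroblasts and endothelium (Cdh5). The 4 arrays were 4 positions of 1 slide, per the file headers, so culture and position cannot be told apart.

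Among the regulators, Nfe2l2 and Keap1 were each steady to within 1.30-fold and 1.26-fold between the highest and the lowest culture. The level of Nfe2l2 was 1.67, 1.45, 1.84 and 1.63 in replicates 1 to 4, with a mean of 1.65 ± 0.16 (SD, n = 4). Replicate 3 was highest and replicate 2 lowest, on both of the spots that this probe has on each array: the spots gave 1.76 and 1.58, 1.51 and 1.40, 1.91 and 1.76, and 1.66 and 1.60 in replicates 1 to 4. Both spots of replicate 3 therefore lay above both spots of replicate 2. The first spot was the brighter one on every array, by 0.06 to 0.18 on the log2 scale, which is less than the difference of 0.38 between the means of those cultures. Keap1, the substrate adaptor that marks NRF2 for degradation, was at -1.32, -1.29, -1.48 and -1.15, with a mean of -1.31 ± 0.14 (SD, n = 4). It was lowest in replicate 3, where Nfe2l2 was highest, and highest in replicate 4, where Nfe2l2 was close to its mean; with 4 cultures no correlation is given.

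The small MAF genes encode partners of NRF2 that bind DNA but lack a transactivation domain of their own. Mafg was at 0.48, 0.66, 0.54 and 0.63 in replicates 1 to 4, with a mean of 0.58 ± 0.08 (SD, n = 4), so its highest culture was 1.13-fold above its lowest. Maff differed more between cultures than any other member. Its level was -1.17, -0.61, -1.17 and -1.09 in replicates 1 to 4, with a mean of -1.01 ± 0.27 (SD, n = 4). Replicate 2 alone stood high, 1.48-fold above the lowest culture, and the other 3 lay between -1.17 and -1.09, so the gap to the next culture was 0.86 of the whole range (Dixon's ratio). Of all probes above background on all arrays, 5.95% had 1 array apart from the other 3 by a ratio above the critical value of 0.829, and of the members 2 of 9 did, Maff and Osgin1. Without replicate 2 the mean was -1.14 and the SD 0.04. Neighbours of the Maff spot were the 60 spot values per array within 10 rows and 3 columns. Their median deviation was 0.07, 0.07, 0.05 and -0.23 on replicates 1 to 4. Maff itself deviated by -0.16, 0.40, -0.16 and -0.08. Probes within 0.5 of Maff's level had a median deviation of 0.00 on replicate 2 and 0.08 on replicate 4. The part of position or brightness in Maff's value was not tested.

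The NRF2 targets Nqo1 and Osgin1 differed by 1.09-fold and 1.26-fold between the highest and the lowest culture. Nqo1 encodes a quinone reductase that spends NADH or NADPH. It was at -1.50, -1.63, -1.55 and -1.55 in replicates 1 to 4, with a mean of -1.56 ± 0.05 (SD, n = 4). Its coefficient of variation on the linear scale was 3.68%, below the error of about 10.1% to 10.2% that the scanner software assigns to each of its spots. Of the 2134 probes within 0.5 of its level, 2.44% had an SD as small or smaller. A coefficient of variation below the software's error was not particular to Nqo1. It was also found for Mafg (5.55%), Me1 (8.31%), Keap1 (9.38%) and Osgin1 (11.7%), and not for Nfe2l2, Maff, Pgd and Taldo1. Osgin1, an oxidative stress induced growth inhibitor, was at -3.96, -3.94, -3.97 and -3.64, with a mean of -3.87 ± 0.16 (SD, n = 4). It was the dimmest member in raw terms: its processed signal was 69.1, 64.2, 69.2 and 60.9 intensity units on arrays whose local background at that spot was between 40 and 50, and the software's error was 12.0% to 13.2%. Replicate 4 stood above the other 3 after scaling, although its unscaled signal was the lowest. The neighbouring spots of Osgin1 had a median deviation of 0.20 on replicate 4, against 0.24 for Osgin1, and probes of like level one of 0.08; the part of either in this value was not tested.

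**Figure D1:**
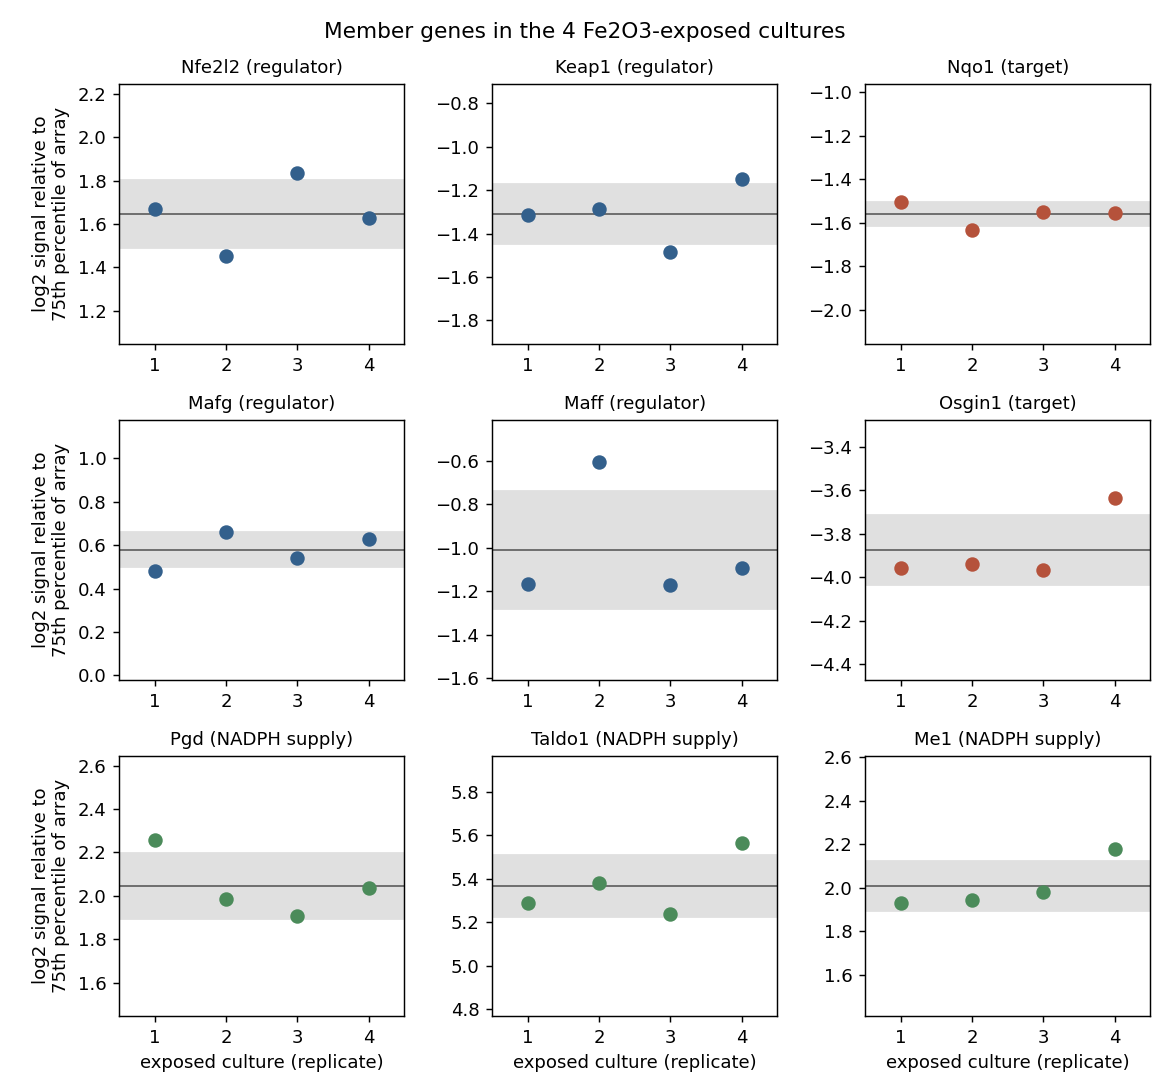
Level on the log2 scale, with 0 at the array's 75th percentile (vertical axis), in each of the 4 exposed cultures (horizontal axis) for the 9 genes, with points for cultures, a line for the mean and a band for 1 SD to each side. Every panel spans the same height on the log2 scale; replicate 2 of Maff (-0.61) and replicate 4 of Osgin1 (-3.64) stand apart from the other 3 points of their panels.

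The enzymes of NADPH supply were also similar in all 4 cultures, at most 1.28-fold apart. Pgd, the phosphogluconate dehydrogenase that makes NADPH in the oxidative branch of the pentose phosphate pathway, was at 2.26, 1.98, 1.91 and 2.03 in replicates 1 to 4, with a mean of 2.05 ± 0.15 (SD, n = 4). Replicate 1 was highest, and the other 3 were close together. Taldo1, the transaldolase of the non-oxidative branch, which returns pentoses to glycolytic sugars, was at 5.29, 5.38, 5.24 and 5.56, with a mean of 5.37 ± 0.14 (SD, n = 4). Me1, the cytosolic malic enzyme that makes NADPH from malate, was at 1.93, 1.94, 1.98 and 2.18, with a mean of 2.01 ± 0.12 (SD, n = 4). Taldo1 and Me1 were both highest in replicate 4. Probes of like level had a median deviation of 0.10 and 0.07 in replicate 4, against 0.20 for Taldo1 and 0.17 for Me1.

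Taldo1 was spotted 10 times on each array, so its spread among spots can be set beside its spread between arrays. The SD among the 9 spots used was 0.05, 0.07, 0.06 and 0.07 in replicates 1 to 4, against 0.14 between the means of the 4 arrays. Among the spots used, those of replicate 4, the highest array, ranged from 5.45 to 5.66. Those of replicate 3, the lowest array, ranged from 5.15 to 5.30 and did not overlap with them. Repeat spots on 1 array come from 1 culture, so they are not replicates of the exposure. After quantile normalization the SD between arrays fell to 0.07, against 0.05 to 0.07 among the spots of 1 array as first scaled, while replicate 4 stayed highest. The remaining spot was marked as an outlier on all 4 arrays, and it read 5.44, 5.51 and 5.41 in replicates 1 to 3, above all other spots of those arrays, and 5.28 in replicate 4, below all others there.

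**Figure D2:**
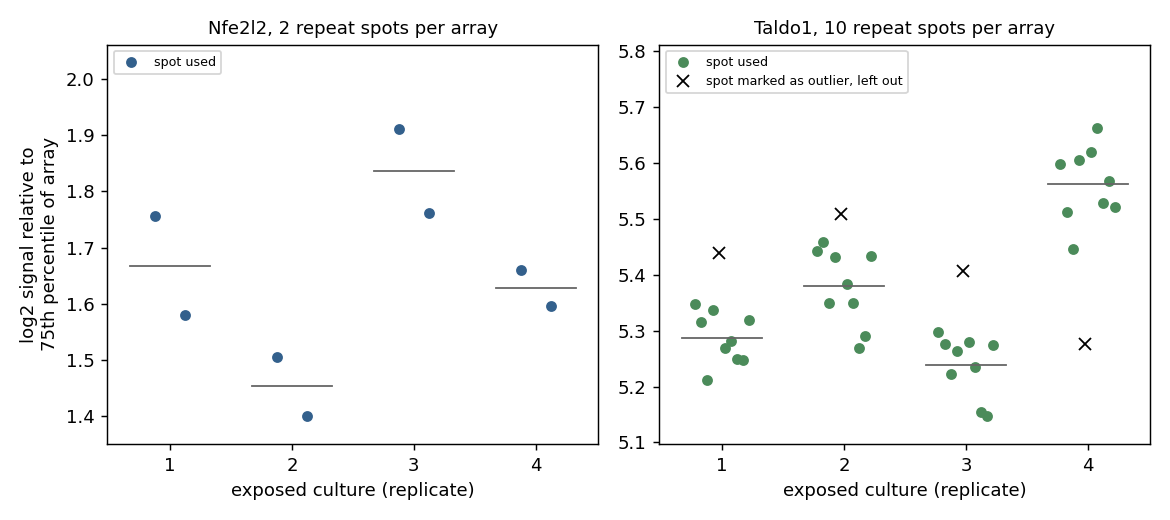
Level on the log2 scale, with 0 at the array's 75th percentile (vertical axis), of every repeat spot of Nfe2l2 (left, 2 spots per array) and Taldo1 (right, 10 spots per array) in the 4 exposed cultures, with a line at the mean of the spots used and crosses for spots marked as outliers and left out. Both Nfe2l2 spots of replicate 3 lie above both of replicate 2, and the marked Taldo1 spot lies above the others in replicates 1 to 3 and below them in replicate 4.

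Whether any member varied between exposed cultures more than probes of its level do was tested across all 16659 probes above background on all arrays. Each probe's variance was set against a prior variance fitted by limma, in an upper-tail F test computed outside that package. Its p is called the limma p here. With Benjamini-Hochberg adjustment, 0 of the 9 members passed at 0.05, against 0.168% of all probes tested (28 probes). The unadjusted limma p was under 0.05 in 0 members, against 984 of the 16659 probes. The adjusted p in limma was 0.998 or above for each member. Maff came nearest, with an unadjusted limma p of 0.221 and an SD of 0.27 against 0.21 for the prior at its level. The SD between cultures was below the prior value in 8 of the 9 members, and in 9491 of all 16659 probes. The median SD was 0.14 for the members and 0.19 for all probes tested, and the median range 0.33 and 0.42. These medians are not matched for signal level. Over all probes the median SD was 0.27 at levels from -5 to -4 and 0.14 at levels from 5 to 6. Against probes within 0.5 of their level, Nfe2l2, Pgd and Taldo1 had an SD close to the median. Maff had a higher one and the other members a lower one. A p above the threshold does not show that the cultures had equal levels.

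**Figure D3:**
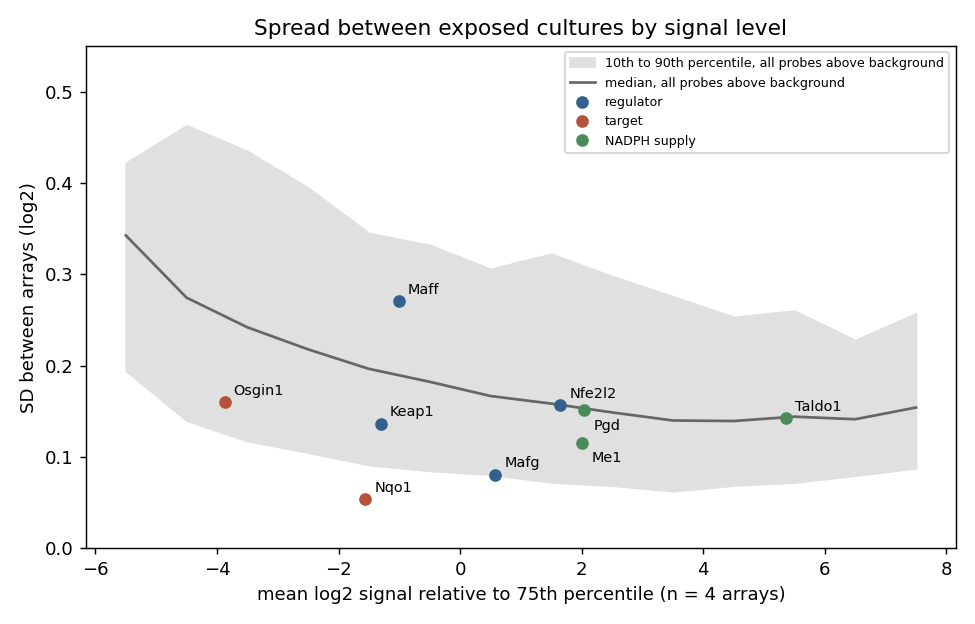
SD between the 4 exposed arrays on the log2 scale (vertical axis) against mean log2 signal relative to the 75th percentile (horizontal axis) for the 9 genes, over the median (line) and the 10th to 90th percentile (band) of all probes above background on all arrays, by level. Nqo1 (0.05) lies under the band, Mafg (0.08) at its lower edge, Maff (0.27) lies above the line inside the band, and no gene lies above the band.

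No culture was high or low in all members. Replicate 4 was highest in 4 of the 9 members (Keap1, Osgin1, Taldo1 and Me1), against 38.1% of all probes tested. Replicate 3 was lowest in 5 of them (Keap1, Maff, Osgin1, Pgd and Taldo1), against 32.3%. Replicates 1 and 2 were each highest in 2 members, against 18.2% and 23.7% of probes, and replicate 3 in 1, against 20% of probes. With 9 members these counts are not read as different from the array as a whole. Replicate 4 was lowest in 0 members, against 14.4% of probes, and replicates 1 and 2 each in 2, against 32.3% and 21%. The culture with the highest level was the same for each of the 9 members under 5 ways of scaling and background correction. The lowest culture was the same under all 5 for Nfe2l2, Keap1, Pgd and Taldo1, and not for the others.

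The genes whose pattern over the 4 arrays was most like that of Maff, the member of widest range, were Entr1, Rab7b and RT1-Db1. Likeness was the root mean square difference between deviations from each gene's own mean, over 4 arrays, and it was 0.03 on the log2 scale for each of the 3 among 10348 named probes compared. Rab7b, for example, was at -2.08, -1.60, -2.16 and -2.05 in replicates 1 to 4. That it was also high in replicate 2 follows from the choice by likeness. Whether these 3 genes share more with Maff than that choice gives was not tested. The adjusted limma p of each was 0.998, as for Maff.

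The wider axis was largely above background too. The members and the wider lists were chosen with earlier results of these data known, so their shares above background are described only. Of 14 measured regulators and partners outside the 9, 11 were above background on all arrays, or 78.6%, against 50.5% of all named genes. They included the ubiquitin ligase parts Cul3 and Rbx1, the autophagy receptor Sqstm1, which competes for KEAP1, and the kinase gene Gsk3b. The small MAF gene Mafk was at -2.91, -2.99, -3.13 and -3.90 in replicates 1 to 4, lowest in replicate 4. The NRF2 relative Nfe2 was at -4.65, -4.69, -4.88 and -4.64. Bach1, a repressor that competes with NRF2 for the same elements, had 2 probes. The one that stands for it was above background on 3 arrays, at -5.29 in replicate 1 and -4.40, -4.40 and -4.26 in replicates 2 to 4. The other was above background on 1 array and read -5.89, -4.99, -5.61 and -4.86 in replicates 1 to 4. Bach2 and Nfe2l3 were above background on none.

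Of 17 other measured genes of NADPH supply, 16 were above background on all arrays, or 94.1%, against 50.5% of all named genes. The exception was the transketolase-like gene Tktl1. Pgls, the lactonase of the oxidative pentose phosphate branch, was at 3.80, 3.59, 3.33 and 3.82 in replicates 1 to 4. The endoplasmic reticulum enzyme H6pd averaged -0.99 ± 0.21 and the isomerase Rpia 0.76 ± 0.05 (SD, n = 4 each). The isocitrate dehydrogenases Idh1 and Idh2, the folate enzymes Mthfd1, Mthfd2, Aldh1l1 and Aldh1l2, the NAD kinases Nadk and Nadk2 and the transhydrogenase Nnt were among those above background on every array.

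Of 25 other NRF2 target genes, 21 were above background on all arrays, or 84%, against 50.5% of all named genes. Hmox1, which breaks down haem, was at 4.27, 4.29, 4.09 and 4.48 in replicates 1 to 4. Gclc, the catalytic subunit of glutathione synthesis, was at 1.17, 1.20, 1.40 and 1.40, whereas its partner Gclm was above background on none. Srxn1, which repairs oxidised peroxiredoxins, was at 3.38, 3.81, 3.88 and 3.72. Gpx2, Gstm1 and Aldh3a1 were also above background on no array. Such a probe gives only an upper bound on its signal, not the absence of the transcript, and Gclm, Gpx2 and Aldh3a1 had 1 probe each. For Cul3, Syvn1, Slc7a11 and Abcc1, 1 probe or more was above background on all arrays and at least 1 other was not. The second Slc7a11 probe, named after its values were seen, read 0.27, -4.82, -4.28 and -5.07 in replicates 1 to 4. It was above background on 3 arrays, so its spread was not tested.

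In the 3 wider lists, 0 of 11, 0 of 16 and 0 of 21 tested genes, each by the probe that stands for it, passed the variance test over all probes. An unadjusted limma p under 0.05 was found for 2 regulators (Gsk3b and Syvn1), 1 NADPH supply gene (Mthfd2) and 1 target (Gstp1). These genes are named by that p. Over all probes tested it was found for 984 of 16659. The second probe of Gstp1 had an unadjusted limma p of 0.0388, and the second probe of Mthfd2 one of 0.632. The second probe of Syvn1 was above background on 3 arrays and was not tested. The median SD between cultures was 0.11, 0.22 and 0.17 in the regulators, the NADPH supply genes and the targets tested, against 0.19 over all probes tested. That comparison is not matched for signal level. Among the probes that stand for genes of the lists, the lowest adjusted limma p was 0.301. It was for a Gsk3b probe that read -0.77, -0.68, -0.54 and -1.85 in replicates 1 to 4. Gsk3b encodes a kinase that primes NRF2 for a KEAP1-independent route of degradation, and it is named here after its values were seen. Its other 3 probes did not share the low value in replicate 4: one of them read -1.63, -1.70, -1.51 and -1.42, highest in that culture. A second probe of Nadk, also named after its values were seen, read 1.86, 1.82, 1.66 and 0.60, with an adjusted limma p of 0.197. The probe that stands for Nadk read 3.01, 3.11, 2.87 and 3.12 and was not low in replicate 4.

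**Figure D4:**
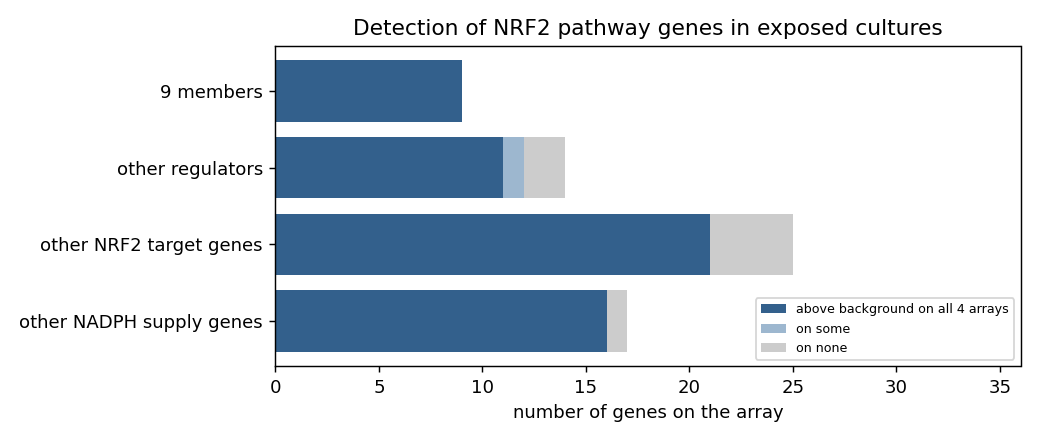
Number of genes above background on all 4, some or none of the exposed arrays (horizontal axis) for the 9 genes and for 3 wider lists of the axis. All 9 genes, 11 of 14 other regulators, 21 of 25 other NRF2 target genes and 16 of 17 other NADPH supply genes were above background on all arrays. Of all named genes, 50.5% were.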

How the data were processed

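Cy3-labelled RNA of 4 exposed cultures was hybridised to single-colour Agilent arrays, per the labels' protocols. The deposited values are intensity units from the scanner software; the submitters' processing notes name Agilent Feature Extraction 11.0.1.1. Per the file headers, that software subtracted background and detrended each array spatially, and it did not scale arrays to each other. The deposited files also give each spot's marks of 0 or 1 for detection, saturation and outliers.

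Control spots and spots marked as outliers were left out, the 75th percentile of the remaining spots was subtracted from log2 of the deposited processed signal, array by array, and repeat spots were averaged. A probe whose spots were all marked on an array was kept. The percentile leaves the spread between arrays open to their scaling, and most probes were not above background. Accessions were matched without version to the RefSeq table of GRCr8, used for names; the grid file names rn4. For a gene of the wider lists with several probes, the one detected on the most arrays stands for it, ties going to the brightest.

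The variance test used R 4.3.3 and limma 3.58.1, setting each probe's variance over 4 arrays against a prior fitted robustly with a trend on level (prior degrees of freedom 10.2), upper tail, adjusted over 16659 probes. The test was also run on data simulated from its own fit to these arrays, with planted spreads far wider than that of any member. That run does not show whether a spread like Maff's would be called. Replicate numbers came from the titles; the number of arrays limits the precision. The members and lists were chosen with earlier results of these data known. Named genes were the members, the first 4 measured genes of each list in list order (1 of them is not reported here), and the 3 nearest in pattern to the member of widest range. Promoters were searched in Python 3.11.15. Alternatives were another scaling, normexp background correction with an offset of 50, quantile normalization, outlier spots kept, other detection rules, other priors and leaving out each replicate. Normexp was applied to the median spot and background signals, in place of the processed signal.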

Additional observations from a re-analysis of the deposited data

Results flagged for a closer look

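Sets of 4 values were examined with Dixon's ratio, the gap of the outermost array to the next divided by the whole range, for the 9 members and 12 genes of the wider lists. Of these 21 sets, 3 had 1 array apart from the other 3, where chance flags about 1 in 20; among all probes above background on all arrays it was 5.95%. For Maff the ratio was 0.86, with replicate 2 high at -0.61. For Osgin1 it was 0.916, with replicate 4 high at -3.64, on the array of lowest signal. For Bach1, by the probe that stands for it, the ratio was 0.864. Replicate 1 was low at -5.29, the 1 array on which that probe was not above background. The other Bach1 probe, above background on 1 array, read -5.89, -4.99, -5.61 and -4.86, so replicate 3 was low there too. None of the flagged sets was tested further.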

How the results depend on the processing

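All 9 members were above background with the positive and significant mark, on at least 1 array in place of all 4, and without any 1 replicate. The wider lists had 48 genes above background on all arrays and 49 under both other detection rules. No member passed the variance test under any of the 12 alternatives, whose lowest member p, unadjusted in limma, ran from 0.106 to 0.399, with adjusted values from 0.979. The number of all probes called depended on the setting: 28 in the form reported, 304 with normexp background correction, 66 with probes above background on at least 1 array, 12 with a constant prior variance, 16 with 1 probe per named gene, where fewer probes were tested, and 11 to 56 when 1 replicate was left out (56 without replicate 1, 11 without replicate 2, 18 without replicate 3 and 53 without replicate 4). Of the 28, 12 were called again without replicate 4. The normexp form also started from the median signals in place of the processed signal. The cause of these changes was otherwise not tested. The median SD of the members ran from 0.0903 without replicate 4 to 0.162 without replicate 1. Scaling to the probes above background moved the level of every probe by -3.42, and keeping outlier spots moved the median level by -0.18. Normexp correction moved the median of all probes by 0.11 and single members by -0.26 to 1.02, the most for the dim Osgin1. No paired analysis was possible because all 4 arrays belong to 1 group. Signal over background limits Osgin1 most among the members.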
